A study of Mus musculus with 16 samples.

Results

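Malat1, Neat1, Miat, Rn7sk, Rmrp, Rpph1 and Terc are 7 non-coding RNAs that work in or from the nucleus, and their newly synthesized and total amounts were examined in mouse embryonic stem cells. They were chosen by name. Rows were found by gene symbol for 5 of them among 32826 genes, namely Malat1, Neat1, Miat, Rn7sk and Terc. Rmrp and Rpph1 were not analysed here.

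The series comprises 16 libraries of E14 mouse embryonic stem cells in 8 groups of 2, from 3 sequencing projects. Project 1 holds AID-Tada3 4sU RNA, WT 4sU RNA and WT total RNA. Project 2 holds AID-Yeats2, Supt7l-/- and WT 4sU RNA, and project 3 holds AID-Zzz3 and WT 4sU RNA. In the AID lines the named protein carries an auxin-inducible degron, which auxin turns into a signal for degradation, whereas Supt7l-/- is a knockout. Every line, WT included, received auxin for 24 h and grew in serum with leukaemia inhibitory factor and the inhibitors CHIR99021 and PD0325901. The 2 libraries of a mutant are 2 clones. WT replicate 1 is plain WT, and WT replicate 2 overexpresses Tir1, the plant receptor that recruits degron-tagged proteins for destruction, together with the biotin ligase BirA. Tada3 is shared by the histone acetyltransferase complexes SAGA and ATAC, Supt7l belongs to SAGA, and Yeats2 and Zzz3 belong to ATAC. 4sU RNA is RNA labelled for 15 min with the uridine analogue 4-thiouridine and pulled down, so it holds what was made in that time.

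Mouse gene counts summed to between 8268061 and 15994518 in the 14 4sU libraries and between 4903998 and 6378707 in the 2 total RNA libraries. Of 7 embryonic stem cell markers 6 were listed, and their summed level was 2390 to 2931 CPM (counts scaled to a common library size) in 4sU RNA and 3608 to 3819 CPM in total RNA. The 12 markers of fibroblasts, primitive endoderm, mesoderm, neural cells and trophoblast summed to 9.06 to 21.6 CPM in 4sU RNA and 10.1 to 20.6 CPM in total RNA. The targeted genes themselves stood at log2 fold changes against WT of -1.28 for Tada3 (adjusted p = 0.0577), -0.74 for Yeats2 (adjusted p = 0.284), -0.29 for Supt7l (adjusted p = 0.479) and -0.58 for Zzz3 (adjusted p = 0.0340, all by edgeR). A degron acts on the protein, so the values of Tada3, Yeats2 and Zzz3 do not measure depletion. Supt7l, the gene of the knockout, stood at 8.85 and 14.1 CPM in its clones, against 13.9 and 14.3 CPM in WT. How the knockout alters its transcript was not tested.

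These RNAs have different makers and different fates. Rn7sk encodes 7SK RNA, a short RNA made by RNA polymerase III that holds the elongation kinase P-TEFb inactive together with Hexim1, Larp7 and Mepce. Terc is the template RNA of telomerase, made by RNA polymerase II and trimmed at its end. Malat1 is a long unspliced RNA concentrated in nuclear speckles and known for its stability, Neat1 is the scaffold on which paraspeckles are built, and Miat is a long non-coding RNA known from neural and other differentiated cells. 7SK and Terc are held as stable ribonucleoproteins, so cells carry far more of them than they make in a short time, while Neat1 is known to turn over faster.

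All 5 genes lie on the minus strand of mm10. Rn7sk (ENSMUSG00000065037, chr9:78175303-78175633) and Terc (ENSMUSG00000064796, chr3:96414437-96414859) each have 1 transcript of 1 exon, of 331 and 423 bases. Malat1 (ENSMUSG00000092341, chr19:5795690-5802672) and Neat1 (ENSMUSG00000092274, chr19:5824708-5845478) are neighbours, with longest transcripts of 6983 and 20771 bases, and Miat (ENSMUSG00000097767, chr5:112213228-112229395) has a longest transcript of 9163 bases. Uridines, the positions that can take up the label, make up 22.4% of Rn7sk, 18.0% of Terc, 28.9% of Malat1, 30.0% of Neat1 and 23.2% of Miat. The median over the longest transcripts of the genes tested was 24.9%, with Rn7sk, Terc and Miat below it and Malat1 and Neat1 above it. The first 300 bases of both short RNAs are shown from GENCODE M21 because these RNAs are near the lower end of the comparison of newly synthesized with total RNA. Capitals mark the uridines, written as T, 63 in Rn7sk and 57 in Terc.
Rn7sk: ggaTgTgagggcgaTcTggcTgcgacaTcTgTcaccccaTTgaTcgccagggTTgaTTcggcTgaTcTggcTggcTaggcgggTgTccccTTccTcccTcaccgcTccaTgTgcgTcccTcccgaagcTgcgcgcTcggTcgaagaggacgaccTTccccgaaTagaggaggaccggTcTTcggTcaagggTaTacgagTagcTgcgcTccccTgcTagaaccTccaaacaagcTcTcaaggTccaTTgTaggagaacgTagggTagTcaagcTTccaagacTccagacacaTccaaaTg
Terc: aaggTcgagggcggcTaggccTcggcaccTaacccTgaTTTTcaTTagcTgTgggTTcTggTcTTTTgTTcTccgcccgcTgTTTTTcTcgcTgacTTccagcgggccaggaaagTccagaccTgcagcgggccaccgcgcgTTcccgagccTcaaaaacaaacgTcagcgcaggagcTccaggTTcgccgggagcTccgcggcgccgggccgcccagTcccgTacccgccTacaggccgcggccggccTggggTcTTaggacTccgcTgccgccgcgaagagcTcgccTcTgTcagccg
The 331 bases of Rn7sk hold 74 uridines and the 423 bases of Terc hold 76. The longest transcript of Malat1 holds 2017 and that of Neat1 6240. How well each RNA takes up the label was not tested.

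Other annotated genes carry stretches like Rn7sk. In a blastn search of GENCODE M21 transcripts, 5 other genes matched Rn7sk over at least 200 bases at 95% identity or more. Of these, 3 are listed in the deposited tables, with 102 counts in all over the 16 libraries, against 1546 to 225593 counts per library for Rn7sk. How the counting treated reads that fit several places is not given in the sources used here, so Rn7sk counts are uncertain to that extent. No gene matched Terc that closely, the nearest reaching 82.6% identity. Gm37376 overlaps Malat1 by 453 bases on the opposite strand and had 141 counts in all 16 libraries, against 219541 for Malat1.

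Relative to WT total RNA, newly synthesized WT RNA held far less Rn7sk and Terc, slightly less Malat1 and more Neat1. The comparison asks how much of each RNA was made within 15 min relative to its standing amount, from 2 WT 4sU libraries and 2 WT total RNA libraries of project 1. All 4 RNAs tested passed an adjusted p of 0.05 in edgeR's quasi-likelihood test, where 63.4% of the 14494 genes did. Of all genes tested, 30.4% were called higher and 33.0% lower in 4sU RNA. Terc entered the test only through its counts in total RNA, so its call could only be lower and is not a finding of direction. With so many genes called, a call alone does not set an RNA apart, and the sizes are more informative. In bulk RNA of this kind, less RNA per cell and fewer cells making it cannot be told apart.

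**Figure D1:**
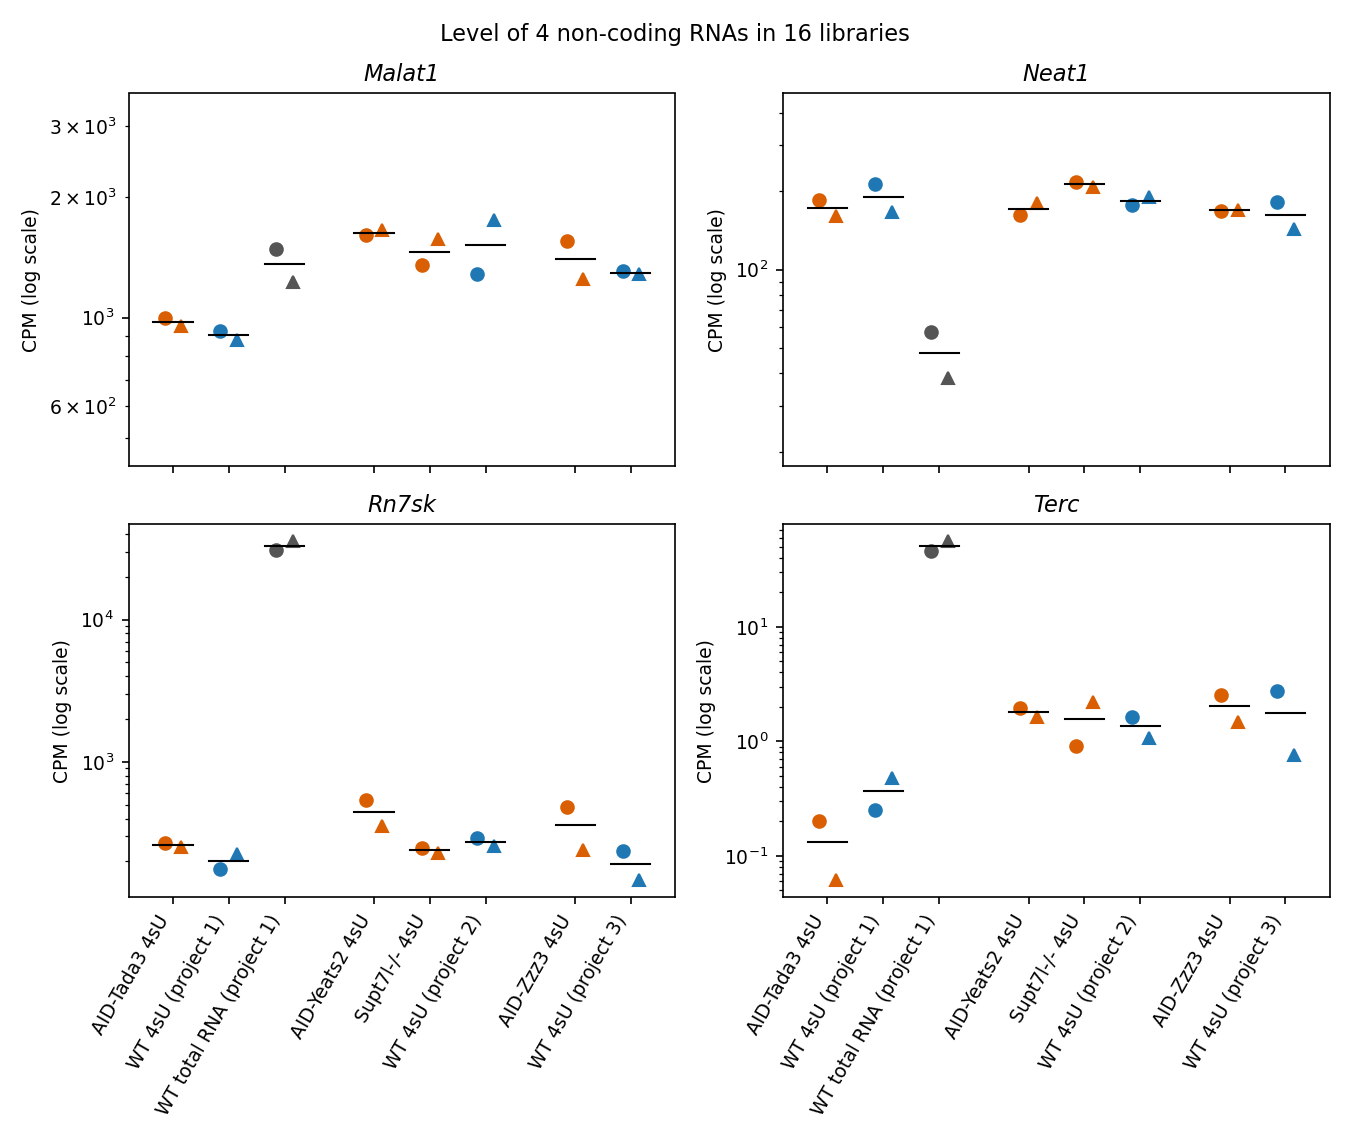
Level of Malat1, Neat1, Rn7sk and Terc in each of the 16 libraries, in CPM on a log axis (x axis: groups, by project). Circles are replicate 1, triangles replicate 2 and the line their mean, with mutants in orange, WT 4sU RNA in blue and WT total RNA in grey. Rn7sk and Terc stand far higher in total RNA than in any 4sU library, Neat1 stands lowest in total RNA, and the Malat1 levels in total RNA lie within the range of the 4sU libraries.

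Rn7sk stood at 176 and 227 CPM in the WT 4sU libraries, against 30600 and 35450 CPM in the WT total RNA libraries. In total RNA, Rn7sk alone took 3.27% (95% Wilson interval 3.25 to 3.28) and 3.54% (3.52 to 3.55) of all mouse gene counts, whereas in 4sU RNA it took 0.0177% and 0.0224%. The groups are far apart, at -7.30 ± 0.26 on the log2 scale (SE, 2 libraries each, adjusted p = 1.10e-05, edgeR), or 158-fold lower in 4sU RNA. Of the 14494 genes, 9 had a lower value, namely an snRNA, the ribozyme gene Rprl3 and 7 genes annotated as processed pseudogenes, 1 of them transcribed.

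Terc had 4 and 7 counts in the WT 4sU libraries, or 0.252 and 0.480 CPM, against 242 and 355 counts, or 46.2 and 55.8 CPM, in total RNA. It passed the filter on low counts only through total RNA, so its call was bound to be in this direction. On the log2 scale it stood at -7.05 ± 0.30 (SE, 2 libraries each, 95% interval -7.75 to -6.34, adjusted p = 1.10e-05, edgeR).

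Neat1 behaved in the opposite way. It stood at 212 and 167 CPM in the WT 4sU libraries, against 57.5 and 38.3 CPM in total RNA. The difference was 2.03 ± 0.23 on the log2 scale (SE, 2 libraries each, adjusted p = 2.35e-04, edgeR), or 4.09-fold higher in 4sU RNA. It ranked 735 from the highest of the 14494 genes.

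Malat1 had 928 and 880.3 CPM in the WT 4sU libraries, against 1487 and 1230 CPM in total RNA. The difference was -0.54 ± 0.17 on the log2 scale (SE, 2 libraries each, adjusted p = 0.0225, edgeR), and the call ended without WT 4sU replicate 1 (-0.53, adjusted p = 0.105) or without WT 4sU replicate 2 (-0.48, adjusted p = 0.171). Malat1 and Neat1, next to each other on chromosome 19, therefore lay on opposite sides of the median of all genes, 0.05.

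Miat was hardly detected. It had 3 and 1 counts in the WT 4sU libraries and 6 and 1 counts in total RNA, and between 1 and 8 counts in every one of the 16 libraries. It passed no filter and was not tested.

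**Figure D2:**
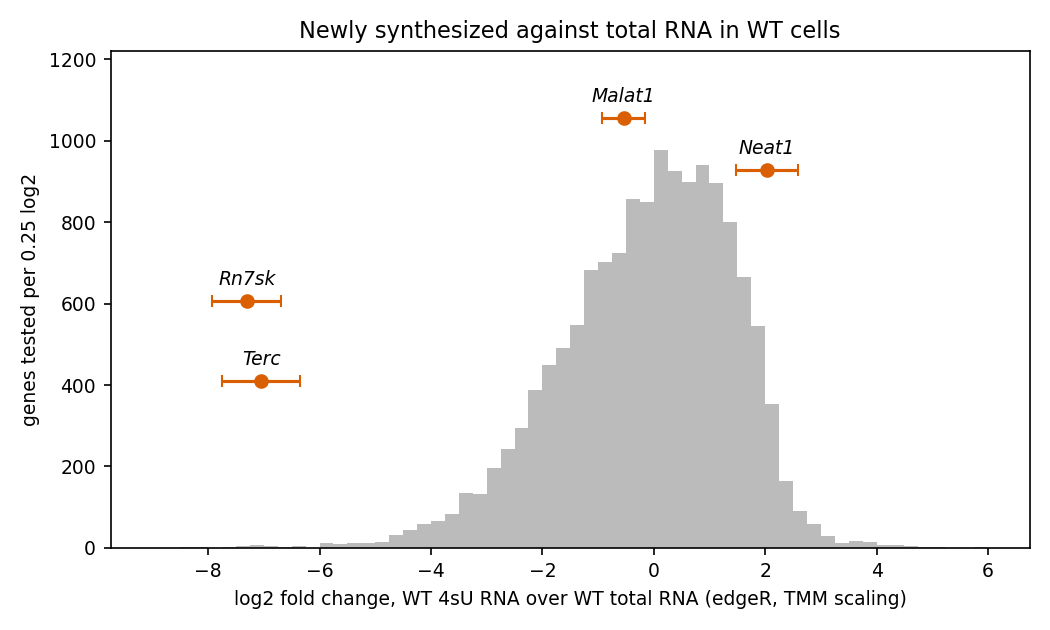
Distribution of the log2 fold change of WT 4sU RNA over WT total RNA (x axis) over the 14494 genes tested (grey bars, genes per 0.25 log2 on the y axis), with Rn7sk, Terc, Malat1 and Neat1 as orange points at arbitrary heights. Horizontal bars are 95% intervals. Rn7sk (-7.30) and Terc (-7.05) lie at the lower end, Malat1 (-0.54) near the middle and Neat1 (2.03) toward the upper end.

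These folds are relative to the bulk of mouse genes, which the scaling sets near 0. When libraries were scaled to labelled Drosophila spike-in RNA, the median gene moved to 2.34 and the values to -5.02 for Rn7sk, -4.78 for Terc, 4.32 for Neat1 and 1.74 for Malat1, whose sign thus turned. Relative to that median, Rn7sk stood at -7.36, Terc at -7.12, Malat1 at -0.60 and Neat1 at 1.98, near the values under the first scaling. The kinds of RNA were prepared differently. Ribosomal RNA was depleted from total RNA and not from 4sU RNA, the input was 1000 ng against 14 to 40 ng, and 4sU RNA was cut to about 700 bp before the pull-down and again for 1 min, against 2 min for total RNA. Effects of these steps on short RNAs cannot be told apart from a difference in synthesis.

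Other short RNAs serve as a yardstick. The 7 snRNA genes tested had a median log2 fold change of -2.97, with 5 called lower, while the 6 snoRNA genes had a median of 0.08, with 2 called lower. The 3 tested genes annotated as misc_RNA, a class for other structured RNAs, were all called lower, and they are Rn7sk, Terc and Gm24146, which had 0 and 1 counts in WT 4sU RNA and 32 and 33 counts in total RNA. Rprl3, the 1 ribozyme gene tested, had 0 counts in both WT 4sU libraries and 16 and 7 counts in total RNA, and Scarna2, the 1 scaRNA gene tested, was called lower at -3.06 (adjusted p = 1.06e-04, edgeR). Gm24146 and Rprl3, like Terc, passed the filter on low counts only through total RNA, so their calls were bound to be in this direction. Very low ratios were also seen in short RNAs other than Rn7sk and Terc, some of them at few counts and in a direction that the filter fixed. The 658 genes whose transcripts all have 1 exon had a median of -1.31, against 0.08 in the 13828 genes with a spliced transcript. Long intergenic non-coding RNAs, the class of Malat1 and Neat1, had a median of 1.03 over 578 genes, of which 239 were called higher and 41 lower. Neat1 was above and Malat1 below the median of their class.

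Per length of transcript, Rn7sk was the most abundant of these RNAs. With the longest annotated transcript as the length, WT total RNA held 99780 ± 10350 CPM per kb of Rn7sk (SD, n = 2), 195 ± 26.0 of Malat1, 121 ± 15.98 of Terc and 2.31 ± 0.652 of Neat1. In WT 4sU RNA of project 1 the order was Rn7sk at 609 ± 110 CPM per kb (SD, n = 2), Malat1 at 129 ± 4.74, Neat1 at 9.13 ± 1.54 and Terc at 0.865 ± 0.382. Terc and Neat1 thus exchange places between total and newly synthesized RNA. With the median transcript length of the deposited tables, which is 656 bases for Malat1 and 3004 for Neat1, Malat1 had 1378 ± 50.9 CPM per kb in 4sU RNA and stood above Rn7sk, so that part of the order depends on the length chosen.

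**Figure D3:**
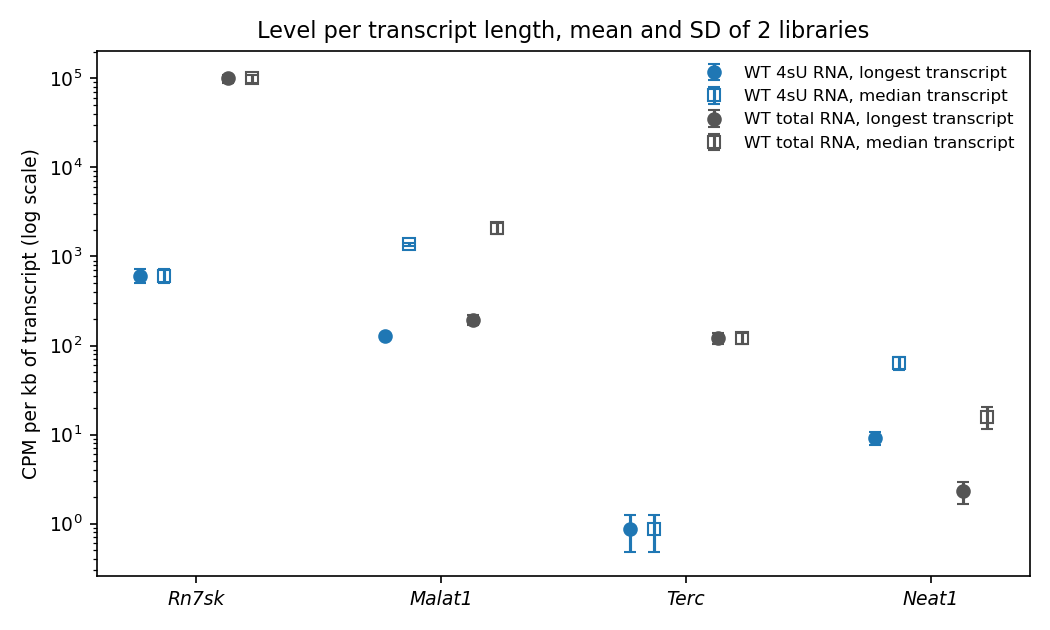
Level per kb of transcript (y axis, log scale) of Rn7sk, Malat1, Terc and Neat1 (x axis) in WT 4sU RNA (blue) and WT total RNA (grey) of project 1, as mean and SD of 2 libraries. Filled circles divide by the longest annotated transcript and open squares by the deposited median transcript length. Rn7sk is highest in total RNA with either length, and Malat1 exceeds Rn7sk in 4sU RNA only with the median length.

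The proteins that work with these RNAs were examined in the same way, and their counts are to be read against the 30.4% of all genes called higher and the 33.0% called lower in 4sU RNA. Of the 7 genes of the 7SK ribonucleoprotein and P-TEFb, 2 were called higher in 4sU RNA, the cyclins Ccnt2 (log2 fold change 0.74) and Ccnt1 (0.62). Another 3 were called lower, among them the P-TEFb inhibitor Hexim1 (-1.24) and the 7SK capping enzyme Mepce (-1.19), and the median was -0.37. None of these mRNAs approached the value of Rn7sk itself. Of 10 telomerase and Terc maturation genes, 4 were called higher, among them the RNA-trimming enzyme Parn (1.37) and the adenylating enzyme Papd5 (1.37). Another 3 were called lower, among them the H/ACA proteins Nhp2 (-2.46) and Nop10 (-3.33).

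Of 10 protein subunits of RNase P and RNase MRP, the enzymes whose RNAs are Rpph1 and Rmrp, none was called higher and 8 were called lower (median -1.67), with Pop5 at -2.81 and Rpp25 at -2.74. Of 11 paraspeckle proteins, 5 were called higher and 2 lower (median 0.54), with Nono at -1.01 among the lower ones. Of 12 speckle proteins and splicing factors, 4 were called higher and 6 lower (median -0.54), with Luc7l3 at 1.56 and Srsf2 at -1.89. Of 27 genes of the RNA polymerase III machinery, 7 were called higher and 10 lower (median -0.22), and its repressor Maf1 had -4.67. All values in these lists are relative to the bulk of genes. Under spike-in scaling, where 81.5% of all genes were called higher, 6 of 7 genes were called higher in the 7SK list, 8 of 10 in the telomerase list, 5 of 10 in the RNase P and MRP list, 11 of 11 in the paraspeckle list, 12 of 12 in the speckle list and 23 of 27 in the RNA polymerase III list. On that scale, which does not give amounts here, lower calls became higher ones for Hexim1 (1.06), Mepce (1.103), Nono (1.28) and Srsf2 (0.41). Nop10 (-1.04), Rpp25 (-0.46) and Maf1 (-2.38) were still called lower, and Nhp2 (-0.16) and Pop5 (-0.51) were not called.

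Of 9 tested neighbours of Malat1 and Neat1 on chromosome 19, 6 were called lower in 4sU RNA and none higher (median -1.22), Frmd8 at -1.55 among them, where 33.0% of all genes were called lower. Under spike-in scaling, which does not give amounts here, 5 were called higher and 1 lower (median 1.082, against 2.34 over all genes). Frmd8 was then called higher (0.75, adjusted p = 0.0145, edgeR). Of 28 other long non-coding RNAs tested, 14 were called higher in 4sU RNA and 3 lower (median 0.58), where 30.4% and 33.0% of all genes were, with the Myc neighbour Pvt1 at 2.18 and the Xist antisense RNA Tsix at 1.95. Another of those called higher, Gm42418, had 14690 and 13410 CPM in WT 4sU RNA and 2844 and 3557 CPM in total RNA. Whether reads of ribosomal RNA, depleted only from total RNA, enter its counts was not tested. Bc1, the only other named RNA polymerase III transcript tested, was lower, with 0.755 and 1.03 CPM in WT 4sU RNA and 31.1 and 8.96 CPM in total RNA (a log2 difference of -4.43, adjusted p = 0.00133, edgeR). It reached the filter on low counts in both libraries of a group only in total RNA, with 12 and 15 counts in WT 4sU RNA. Without a library the value of Bc1 ranged from -5.13 to -3.31, with an adjusted p of at most 0.0482 (edgeR).

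Across the 6 WT 4sU libraries of the 3 projects, Neat1 varied least, with a lowest level of 143 CPM, a median of 180 CPM and a highest of 212 CPM. Malat1 ranged over 880.3, 1284 and 1752 CPM and Rn7sk over 148, 232 and 294 CPM, a 1.99-fold span in both. Terc ranged over 0.252, 0.914 and 2.77 CPM, an 11-fold span at 4 to 32 counts per library. Malat1 and Terc were lowest in project 1, so levels are compared only within a project.

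Neither Malat1, Neat1, Rn7sk nor Terc passed the test in any of the 4 mutants against WT 4sU RNA of the same project. In AID-Tada3 cells 0 of 3 tested RNAs were called by edgeR (background 0.0331% of 15099 genes), with 1 at an unadjusted p under 0.05, as had 8.0% of genes. In AID-Yeats2 cells 0 of 4 were called (background 7.24% of 14513 genes), with 1 at an unadjusted p under 0.05, as had 21.3% of genes. In Supt7l-/- cells 0 of 4 were called (background 3.33%), with 1 at an unadjusted p under 0.05, as had 18.3%, and in AID-Zzz3 cells 0 of 4 were called (background 0.984% of 14529 genes) and 0 had an unadjusted p under 0.05, as had 12.9%. DESeq2 called 0 in each mutant as well. The p-values measure the spread between 2 clones and between 2 WT lines. In project 2 that spread is shared by the AID-Yeats2, Supt7l-/- and WT libraries. Groups of 2 libraries can lie apart by ordering alone, and the share of all genes whose groups did so was not determined.

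Of the RNAs tested, Rn7sk had the largest log2 fold change in the 3 degron lines but not in Supt7l-/- cells, where those of Neat1 and Terc were larger in size. In AID-Tada3 clones it stood at 269.5 and 251.5 CPM, against 176 and 227 CPM in WT (log2 fold change 0.37, 95% interval 0.09 to 0.64, adjusted p = 0.523, edgeR). Both clones lay above both WT libraries. Without WT replicate 2 the value was 0.57 and was called (adjusted p = 3.51e-07, edgeR), and without WT replicate 1 it was 0.19. In AID-Yeats2 clones it stood at 538 and 353 CPM, against 294 and 256 CPM in WT (0.69, interval 0.04 to 1.35, adjusted p = 0.216, edgeR). Both clones were again above WT, clone 1 well above clone 2. Without AID-Yeats2 replicate 2 the value was 0.97 and was called (adjusted p = 3.52e-04, edgeR).

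In AID-Zzz3 clones Rn7sk stood at 481 and 239.7 CPM, against 237 and 148 CPM in WT (0.91, interval -0.38 to 2.19, adjusted p = 0.522, edgeR). Clone 1 was far above the rest, and clone 2 barely exceeded plain WT. Without AID-Zzz3 replicate 1 the value was 0.31, without replicate 2 it was 1.32, and without WT replicate 2 it was 0.59, and none of these was called. In Supt7l-/- clones Rn7sk stood at 248 and 230.9 CPM, against 294 and 256 CPM in WT (-0.20, interval -0.87 to 0.46, adjusted p = 0.731, edgeR), with both clones below both WT libraries. Rn7sk was therefore on the higher side in the 3 degron lines and on the lower side in the knockout, without passing the test in any, and with the same signs under spike-in scaling. The difference among the 4 mutants was tested with all 14 4sU libraries in a single model and was not called for Rn7sk (adjusted p = 0.395, edgeR), Neat1 (0.307), Terc (0.714) or Malat1 (0.802), where 6.55% of 15426 genes were called. Under spike-in scaling it was called for Rn7sk (adjusted p = 0.000986, edgeR).

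Other short RNAs give values to set beside these. The summed level of 458 other snRNA, snoRNA, scaRNA, ribozyme and further short structured RNA genes, Terc included, was 63.2 and 65.6 CPM in AID-Yeats2 clones and 40.2 and 42.7 CPM in Supt7l-/- clones, against 44.6 and 62.1 CPM in WT. In AID-Zzz3 clones it was 61.1 and 47.0 CPM, against 49.99 and 47.9 CPM in WT, and in AID-Tada3 clones 41.99 and 41.1 CPM, against 36.4 and 45.0 CPM in WT. Within a line, the clone with the higher Rn7sk level also had the higher sum in AID-Zzz3 and AID-Tada3, and the lower sum in AID-Yeats2 and Supt7l-/-. This sum was formed after the data were seen, and its part in the values of Rn7sk was not tested.

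Differences of Neat1 from WT were small. It stood at 186 and 160.2 CPM in AID-Tada3 clones, against 212 and 167 CPM in WT, and at 163 and 180.0 CPM in AID-Yeats2 clones, against 177 and 189 CPM in WT. In Supt7l-/- clones it stood at 217 and 208 CPM, against 177 and 189 CPM in WT, with no overlap (log2 fold change 0.21, 95% interval 0.05 to 0.37, adjusted p = 0.139, edgeR), and it was called without WT replicate 2 (0.26, adjusted p = 0.0152). AID-Zzz3 clones had 168 and 169 CPM, against 182 and 143 CPM in WT. The intervals of the log2 fold change were -0.43 to 0.15 in AID-Tada3, -0.26 to 0.06 in AID-Yeats2 and -0.24 to 0.35 in AID-Zzz3 cells. Without WT replicate 2 of project 1, Neat1 was called in AID-Tada3 cells (-0.29, adjusted p = 0.0137, edgeR), and without WT replicate 1 the value was 0.05.

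Malat1 differed from WT by log2 values of 0.10 in AID-Tada3 (interval -0.11 to 0.32), 0.10 in AID-Yeats2 (-0.35 to 0.55), -0.06 in Supt7l-/- (-0.51 to 0.39) and 0.12 in AID-Zzz3 cells (-0.16 to 0.40). It stood at 997 and 953.0 CPM in AID-Tada3 clones, against 928 and 880.3 CPM in WT, and at 1556 and 1248 CPM in AID-Zzz3 clones, against 1308 and 1282 CPM in WT. Only the AID-Tada3 pair lay wholly above its WT pair. Its levels in AID-Yeats2 clones were 1608 and 1650 CPM and in Supt7l-/- clones 1350 and 1574 CPM, against 1287 and 1752 CPM in WT, so the clones lay within the range of the WT pair. Leaving out WT replicate 2 of project 2 turned the AID-Yeats2 value into a call (0.34, adjusted p = 4.36e-04, edgeR), and leaving out WT replicate 1 gave -0.11. The Supt7l-/- value was called without WT replicate 1 (-0.26, adjusted p = 0.00111, edgeR) and was 0.18 without WT replicate 2.

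Terc was too sparse to be compared closely. AID-Yeats2 clones had 19 and 16 counts and Supt7l-/- clones 8 and 21 counts, against 17 and 10 counts in WT, and AID-Zzz3 clones had 21 and 19 counts, against 32 and 8 in WT. The log2 fold changes were 0.39, 0.21 and 0.12, and their intervals spanned -0.60 to 1.38, -0.82 to 1.23 and -1.23 to 1.46. In AID-Tada3 cells Terc had 3 and 1 counts, against 4 and 7 in WT, and was not tested. The intervals of the tested lines all include 0 and reach 1.23 or more, so a rise of Terc of that size was not excluded at this depth.

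**Figure D4:**
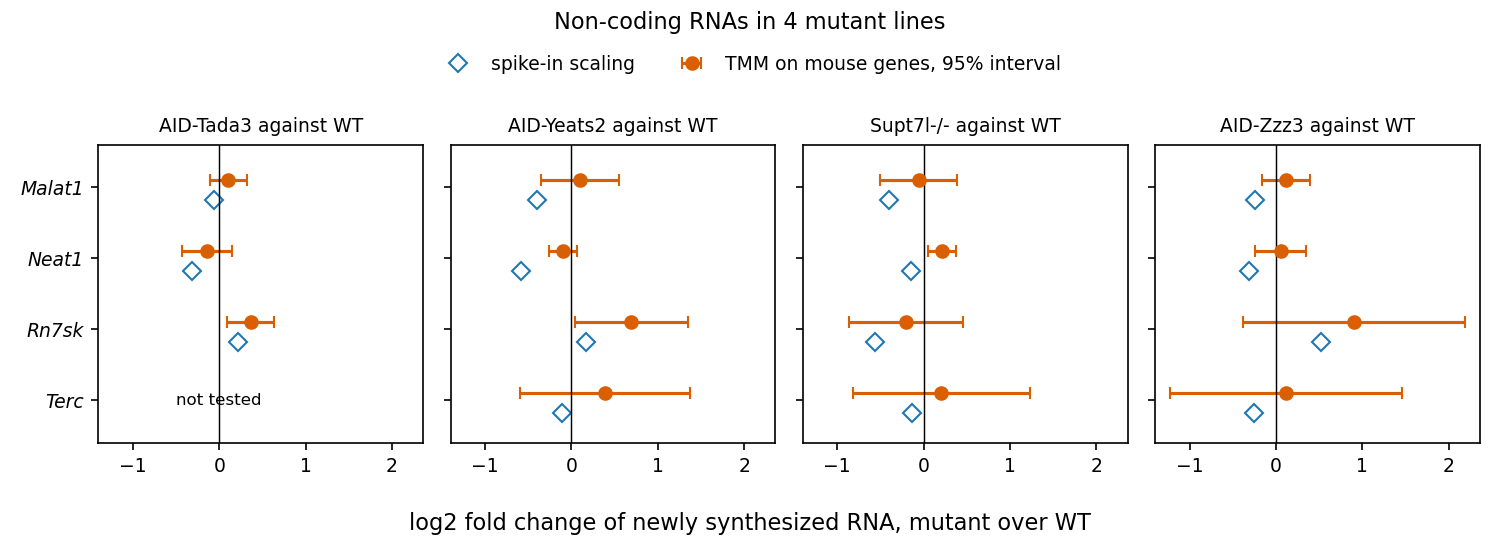
Log2 fold change of newly synthesized Malat1, Neat1, Rn7sk and Terc (rows) over WT, with a panel each for AID-Tada3, AID-Yeats2, Supt7l-/- and then AID-Zzz3 cells. Orange points and bars give the value and 95% interval under TMM scaling on mouse genes, and open blue diamonds the value under spike-in scaling. Every interval but those of Rn7sk in AID-Tada3 and AID-Yeats2 and of Neat1 in Supt7l-/- cells includes 0.

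With spike-in factors the median gene stood at -0.16 in AID-Tada3, -0.50 in AID-Yeats2, -0.36 in Supt7l-/- and -0.36 in AID-Zzz3 cells. On that scale Neat1 in AID-Yeats2 cells stood at -0.59 on the log2 scale (adjusted p = 0.0440, edgeR), against -0.09 relative to the median. The authors' deposited table gave Neat1 in AID-Yeats2 cells -0.53 (adjusted p = 0.0150) and Rn7sk in Supt7l-/- cells -0.52 (adjusted p = 0.0421). Its size factors in project 2 followed the spike-in counts, from 0.797 at 1424672 counts (WT replicate 2) to 1.28 at 2296779 (AID-Yeats2 replicate 1). The deposited values are therefore to be set beside the spike-in ones here, not beside those under TMM. Rn7sk in Supt7l-/- cells had -0.57 under spike-in scaling (adjusted p = 0.120, edgeR). Rn7sk in AID-Yeats2 cells had 0.16 in the authors' deposited table (adjusted p = 0.410).

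AID-Yeats2 and Supt7l-/- clones, the only mutants of a single project, were also compared directly, and 16.3% of genes were called. Neat1 stood at 163 and 180.0 CPM in AID-Yeats2 clones, against 217 and 208 CPM in Supt7l-/- clones (log2 difference -0.31 ± 0.07, SE, adjusted p = 0.0113, edgeR). It was the only one of the 4 RNAs called, and the call ended under spike-in scaling (-0.44, adjusted p = 0.312) and without AID-Yeats2 replicate 1 (-0.24, adjusted p = 0.189), Supt7l-/- replicate 1 (-0.28, adjusted p = 0.126) or Supt7l-/- replicate 2 (-0.35, adjusted p = 0.0773). Rn7sk had 0.90 ± 0.24 and missed the threshold (adjusted p = 0.0916, edgeR), although it was called by DESeq2 (adjusted p = 0.00809) and under spike-in scaling (0.74, adjusted p = 0.0261, edgeR). It was also called without AID-Yeats2 replicate 1 (0.57, adjusted p = 0.00642) or replicate 2 (1.17, adjusted p = 3.065e-05). Malat1 had 0.16 (interval -0.29 to 0.61; called without WT replicate 1 at an adjusted p of 0.0160 and without WT replicate 2 at 0.0251) and Terc 0.18 (-0.80 to 1.1597).

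The WT lines differ in Tir1 and BirA, and this enters the spread of every mutant comparison. In a fit of the 6 WT 4sU libraries that also carried a project term, none of the 4 RNAs was called in Tir1/BirA cells against plain WT (background 1.24% of 14181 genes), and none had an unadjusted p under 0.05, as had 14.0% of genes. The log2 fold changes were 0.10 for Malat1, -0.17 for Rn7sk, -0.21 for Neat1 and -0.84 for Terc. Without project 1, Rn7sk (-0.45, adjusted p = 0.00324) and Terc (-1.28, adjusted p = 0.0476) were called lower in the Tir1/BirA line by edgeR. Among the other long non-coding RNAs 2 of 28 were called, both lower. Gm26917 (log2 difference -0.38, adjusted p = 0.0265, edgeR) was called in only 1 of 3 fits that left out a project. It stood at 50430 to 97490 CPM in WT 4sU libraries, and whether reads of ribosomal RNA, not depleted there, enter its counts was not tested. Airn, an imprinted antisense RNA, stood at 6.65, 6.39 and 5.82 CPM in the Tir1/BirA line in projects 1 to 3, against 16.98, 12.5 and 17.7 CPM in plain WT (log2 difference -1.33, adjusted p = 0.00781, edgeR), though not called without project 2 (adjusted p = 0.0960).

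Among the partner genes, few were called in the mutants. Under TMM scaling none of the lists had a gene called in AID-Tada3 cells, where only 0.0331% of all genes were. No 7SK, paraspeckle or RNA polymerase III gene was called in any mutant against WT, where 0.0331% to 7.24% of all genes were. Spike-in scaling, which moves all genes down, called 8 of 11 paraspeckle genes lower in AID-Yeats2 and 9 of 11 in AID-Zzz3 cells, with medians of -0.59 and -0.47. Over all genes, that scaling called 23.5% lower in AID-Yeats2 and 24.7% in AID-Zzz3 cells, with medians of -0.50 and -0.36. Tert, the catalytic subunit of telomerase, rose in AID-Yeats2 cells, with 32.1 and 29.4 CPM against 17.8 and 19.7 CPM in WT (0.71 ± 0.13 on the log2 scale, adjusted p = 0.00453, edgeR). It was the 1 of 10 telomerase genes called there, where 7.24% of all genes were, and the call ended under spike-in scaling (0.21, adjusted p = 0.510) and without AID-Yeats2 replicate 1 (adjusted p = 0.0901). Rpp14, a subunit of RNase P and MRP, fell by 0.45 ± 0.13 on the log2 scale in AID-Yeats2 cells (adjusted p = 0.0452, edgeR), 1 of 10 genes of its list, and was called in 1 of 6 fits that left out a library.

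Rnps1, a splicing factor of speckles, was called lower in AID-Yeats2 and AID-Zzz3 cells. It stood at 34.6 and 37.4 CPM in AID-Yeats2 clones, against 72.7 and 83.3 CPM in WT (-1.12 ± 0.10, adjusted p = 2.08e-05, edgeR), and at 35.6 and 37.6 CPM in AID-Zzz3 clones, against 73.2 and 76.5 CPM in WT (-1.03 ± 0.11, adjusted p = 0.0153, edgeR). In both lines the clones lay below both WT 4sU libraries of their project. Without AID-Zzz3 replicate 1 the call in that line ended (adjusted p = 0.0966, edgeR). None of the other 11 speckle genes was called in either line under TMM scaling. Rnps1 was not called in AID-Tada3 cells, at 76.4 and 80.3 CPM against 80.9 and 84.8 CPM in WT, though Tada3 is also in ATAC. It was not called in Supt7l-/- cells either, at 64.1 and 62.8 CPM against 72.7 and 83.3 CPM in WT.

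Of 29 other long non-coding RNAs tested in AID-Yeats2 cells, 2 rose and 8 fell (median -0.24), where 7.24% of all genes were called. Snhg17, a snoRNA host gene, fell by 1.136 ± 0.12, Platr14 by 0.80 ± 0.12 and Firre, an RNA of the X chromosome, by 0.60 ± 0.08, while Pvt1 rose by 0.59 ± 0.09 (adjusted p from 1.84e-04 to 0.00326, edgeR). In AID-Zzz3 cells, where 0.984% of all genes were called, 1 of 28 rose, Pvt1 (0.70), and 2 fell, Snhg17 (-0.90) and Platr14 (-1.159). Platr14 was not called in AID-Tada3 cells, at 36.9 and 41.7 CPM against 66.0 and 60.1 CPM in WT. In Supt7l-/- cells 1 of 29 was called higher, Jpx (1.75), and none lower, which is near the 3.33% of all genes called there. Uncalled genes lay on both sides. Meg3 stood at 10.9 and 8.63 CPM in Supt7l-/- clones, against 55.2 in plain and 195 CPM in Tir1/BirA WT. In the same order, Rian had 29.0 and 25.8 against 157 and 628 CPM, and Mirg 8.06 and 7.68 against 40.2 and 189 CPM. Pvt1 lay higher, at 725 and 656 against 647 and 526 CPM. The WT lines thus lay far apart for Meg3, Rian and Mirg. Without either AID-Zzz3 clone the calls of Snhg17 and Pvt1 ended there, as did that of Jpx without either Supt7l-/- clone, and Platr14 lost its call without AID-Zzz3 replicate 1. Spike-in scaling ended the Pvt1 calls (0.10 in AID-Yeats2, adjusted p = 0.732, and 0.34 in AID-Zzz3 cells, adjusted p = 0.0678, edgeR) and raised the number called lower to 17 of 29 in AID-Yeats2, 14 of 28 in AID-Zzz3 and 5 of 29 in Supt7l-/- cells, where it called 23.5%, 24.7% and 4.45% of all genes lower. Malat1 and Neat1 were not called under TMM scaling in any of these lines, whereas several other long non-coding RNAs were.

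The genes whose pattern was most like each RNA were sought over the 14 4sU libraries, each library taken relative to WT of its own project on the log2 CPM scale. Rn7sk was followed most closely by Smurf1, with Pearson's r of 0.991 and Spearman's rho of 0.960 over 14 libraries, among 7949 genes whose median r was -0.10. Without AID-Yeats2 replicate 1 and AID-Zzz3 replicate 1, the libraries farthest from the median, r was 0.972 over 12 libraries. Spsb1 (0.932) and Arhgef26 (0.922) came next and fell to 0.832 and 0.800 without those libraries. Neat1 was most like Bcr (0.860), Nipal3 (0.847) and Ap2m1 (0.827), and Malat1 most like Fbxl12 (0.820), Ccz1 (0.783) and Ube2h (0.778). Terc, at a mean of 1.28 CPM, was most like Hist1h3c (0.834), where counting noise enters the ranking. These are the highest of 7949 correlations or more each, and the libraries share 3 projects and their WT libraries, so they describe these libraries only.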

How the data were processed

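Newly synthesized (4sU) RNA was sequenced in 14 libraries and total RNA in 2. For each project the authors deposited raw counts of mouse and of spike-in genes, a normalized signal that was checked to equal the count over a size factor, log2 fold changes and p-values of mutants against WT, and the median transcript length. The submitters' processing notes name HTSeq 0.6.1p1 and STAR 2.5.3a, among other tools.

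The raw counts were analysed in edgeR 4.0.16 (R 4.3.3), with DESeq2 1.42.0 as an alternative and Python 3.11.15 and blastn 2.17.0 for tables and sequence matches. After filterByExpr (minimum count 10) and TMM scaling on mouse genes, each mutant was set against WT of its own project by the robust quasi-likelihood test. Benjamini-Hochberg adjustment was over all genes at 0.05. AID-Yeats2, Supt7l-/- and WT of project 2 shared a single fit. The procedure was tested on simulated data. Levels in CPM use TMM over all 16 libraries. Intervals of shares are 95% Wilson intervals and cover counting error only. In 4sU against total RNA, libraries with the same number come from the same WT line (correlation of deviations 0.456), and a block for the line, which leaves 1 residual degree of freedom, kept all 4 calls. Other alternatives were scaling to spike-in genes or by DESeq2, other filters, a joint model and leaving out each library, in which case a library without a partner borrows the spread of the others. The RNAs and gene lists were chosen with earlier results of these data known. Named genes are the RNAs themselves, up to 4 called genes of each list with the smallest p, and the 3 most alike genes; some list genes that this rule selects are not reported here.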

Additional observations from a re-analysis of the deposited data

Results flagged for a closer look

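The AID-Yeats2 effect on Neat1 minus the Supt7l-/- effect was -0.312 on the log2 scale (adjusted p = 0.0113, edgeR), a difference between mutants that was tested directly within project 2. Both AID-Yeats2 clones lay below both Supt7l-/- clones, and the test over all 4 mutants did not call it (adjusted p = 0.307, edgeR).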

How the results depend on the processing

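Of 265 log2 fold changes recomputed under an alternative, 218 kept their direction and side of the threshold, 18 passed it newly, 6 no longer passed and 23 changed sign. Rn7sk and Neat1 in WT 4sU against total RNA kept direction and call throughout, and leaving out a library gave -7.47 to -7.08 and 1.71 to 2.31. Terc, whose direction the filter fixed, had -7.51 to -6.59. Malat1 there ranged from -0.73 to -0.44, and 3 to 4 RNAs were called. Spike-in scaling turned Malat1 in that comparison (1.74), and also Malat1 in AID-Tada3 (-0.059), AID-Yeats2 (-0.39) and AID-Zzz3 (-0.25), Neat1 in Supt7l-/- (-0.15) and AID-Zzz3 (-0.31), Terc in AID-Yeats2 (-0.11), Supt7l-/- (-0.13) and AID-Zzz3 (-0.26), and Malat1 in Tir1/BirA against plain WT (-0.0004). Spike-in scaling shifts all genes in these comparisons. Without a library the ranges were -0.293 to 0.0468 for Neat1 and 0.19 to 0.57 for Rn7sk in AID-Tada3, -0.11 to 0.34 for Malat1 and 0.36 to 0.97 for Rn7sk in AID-Yeats2, -0.26 to 0.18 for Malat1, -0.58 to 0.69 for Terc and 0.17 to 0.26 for Neat1 in Supt7l-/-, -0.0569 to 0.27 for Malat1, -0.12 to 0.24 for Neat1 and -0.52 to 1.34 for Terc and 0.31 to 1.32 for Rn7sk in AID-Zzz3, and -0.30 to 0.96 for Terc and 0.57 to 1.17 for Rn7sk in AID-Yeats2 against Supt7l-/-. In Tir1/BirA against plain WT, Malat1 had -0.0615 without project 2 and Rn7sk 0.0848 without project 3. The cause was not tested.

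Counts of called RNAs in AID-Tada3 were 0, with 1 without a filter (Rn7sk, adjusted p = 0.0196, edgeR) and 0 to 2 without a library. In AID-Yeats2 the count was 0, with 1 under spike-in scaling and 0 to 1 without a library, in Supt7l-/- 0 to 1 without a library, and in AID-Zzz3 0 throughout. Between AID-Yeats2 and Supt7l-/- it was 1, with 2 by DESeq2, 0 to 2 without a library and 3 with the replicate block of clone numbers, which share only a number (correlation of deviations 0.0372). It was 2 without project 1 for Tir1/BirA against plain WT, and 1 under spike-in scaling for a difference among the 4 mutants. With the replicate block of WT lines, Malat1 had -0.53 in 4sU against total RNA and all 4 RNAs were called, at 1 residual degree of freedom. No paired analysis was possible between mutants and WT because clone numbers have no WT counterpart.

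Over all genes, calls ranged from 7574 to 12383 in 4sU against total RNA (main 9185), 0 to 2040 in AID-Tada3 (5), 220 to 3470 in AID-Yeats2 (1051), 40 to 2629 in Supt7l-/- (484), 14 to 3713 in AID-Zzz3 (143), 679 to 4495 in AID-Yeats2 against Supt7l-/- (2361), 3 to 1228 in Tir1/BirA against plain WT (176) and 308 to 1906 among the 4 mutants (1010). Depth limits Terc, with at most 32 counts in a 4sU library, and Miat, with at most 8. With 2 libraries per group, a missed threshold does not show that an RNA stayed the same.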
